A study of Homo sapiens with 15 samples.

Results

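The comparison set the IDH1R132H line of TF-1 cells against the 3 lines with a mutant IDH2, using 12 of the 15 libraries of the series. TF-1 is a human erythroleukaemia cell line that depends on cytokines such as GM-CSF, and the edited lines were made from it by base editing, which changes single bases in the genome without a cut through both DNA strands. The tested line was IDH1R132H, and it was set against IDH2R140Q, IDH2R140W and IDH2R172K, each with 3 libraries of poly(A) RNA. The 4 edited lines were all grown without GM-CSF, so they shared their medium. Unedited Parental cells, also with 3 libraries, received GM-CSF at 2 ng/ml, and their levels serve as a description. Each genotype was 1 line as far as the labels show, so the mutated gene and the history of the single IDH1R132H line cannot be told apart. The labels do not state whether the libraries of a line are independent cultures, and the p-values therefore reflect library-to-library spread that may be technical.

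IDH1 makes NADPH and 2-oxoglutarate in the cytosol and peroxisomes, and IDH2 does so in mitochondria. Mutation of the arginines that bind isocitrate gives either enzyme a new activity, in which 2-oxoglutarate is turned into 2-hydroxyglutarate. 2-hydroxyglutarate competes with 2-oxoglutarate in dioxygenases such as the TET enzymes and the JmjC histone demethylases, and both genes are recurrently mutated in acute myeloid leukaemia.

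The edited codon of IDH1 is shown to place the mutation that defines the IDH1R132H line. The sequence gives 27 bases of the reference coding sequence (hg38, GENCODE release 29), 5′ to 3′ on the minus strand, with the edited arginine codon in capitals. The codon lies in exon 4 at chr2:208248387-208248389.
IDH1R132H codon: atcatcataggtCGTcatgcttatggg
TPM adds up both alleles, so the edits themselves were not checked. IDH1 had 38.3, 37.9 and 34.3 TPM in IDH1R132H, against 57.5, 56.4 and 67.0 TPM (IDH2R140Q), 36.5, 36.4 and 30.9 TPM (IDH2R140W) and 36.6, 35.5 and 40.8 TPM (IDH2R172K). IDH1R132H lay within the range of the 9 IDH2 libraries, and the log2 difference of −0.21 did not reach the size asked for (limma adjusted p = 0.0480). IDH2 had 51.8, 56.7 and 48.3 TPM in IDH1R132H, against group means of 74.7 TPM for IDH2R140Q, 45.4 for IDH2R140W and 31.8 for IDH2R172K. It also lay within their range (0.13, limma adjusted p = 0.159).

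Expression was deposited as TPM, a transcript abundance scaled for transcript length and to a fixed library total. Differences are IDH1R132H minus the mean of the 3 IDH2 group means in log2(TPM + 1), where the added 1 shrinks the changes of genes with low levels. A gene was called when limma's adjusted p was under 0.05 and the difference was 1 or more in either direction. Of 14881 symbols tested, 682 were called (4.58%), with 396 higher (2.66%) and 286 lower (1.92%) in IDH1R132H. These shares over all symbols are the ones to set beside the called counts of the gene lists below. By adjusted p alone, with no demand on size, 4881 of the 14881 symbols passed, so counts by adjusted p alone are to be read beside that. The mean of 3 groups can be moved by 1 of them, so the members described here are called genes whose 3 IDH1R132H libraries lay all above the highest or all below the lowest of the 9 IDH2 libraries. These were 502 genes (3.37%), with 311 higher (2.09%) and 191 lower (1.28%). Without any threshold on size, 2623 symbols (17.6%) lay on one side in this way, 1655 higher (11.1%) and 968 lower (6.5%), so the separation alone was common. Just inside the threshold stood SLC7A5P1 at 1.0009 and LGALS8 at −1.0016, and just outside it AC079466.1 at 0.9998 and ATXN7L1 at −0.9975. The median difference over all tested symbols was 0.03.

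The libraries held TF-1 markers in part, while GATA1 and CSF2RA were listed at 0 in all 15 libraries, as were TKT and MDH2, which every cell uses. CD34 averaged 512 TPM, CD33 248, TAL1 104 and LMO2 175 in IDH1R132H. Of the 8 TF-1 markers tested, CSF2RB was lower in IDH1R132H and the other 7 were not called. Of 19 markers of other cell types, 8 reached the tested set, and KDR, CD3D and CDH5 were called higher, KDR alone of these on one side. All 8 differences were above 0, and 7 had an adjusted p under 0.05. KRT8, KRT18 and PECAM1 also lay above all 9 IDH2 libraries, by less than the threshold (0.57, 0.47 and 0.78). The summed level of the 19 markers was 1031.6 to 1042.9 TPM in IDH1R132H, against 629.2 to 805.8 in the IDH2 libraries, and most of it came from the keratin genes KRT18 and KRT8. The B cell markers CD79A and MS4A1 were also listed at 0 in all libraries, which cannot be read as absence where TKT is listed at 0 too, and CD3E, COL1A2, EPCAM and CDH1 stayed below 1 TPM in each. The share of TPM in ribosomal protein genes was 22.1% in IDH2R140W replicate 3, against 18.3% and 18.6% in the other libraries of that line and 13.8% to 15.5% in the other edited libraries. Without that library 673 genes were called and 503 of them lay on one side. The edited libraries had 12946 to 13792 symbols at 1 TPM or more.

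The 502 genes did not stand at an equal distance from the 3 IDH2 lines. For the 311 higher genes the nearest IDH2 line was IDH2R140Q in 169, IDH2R172K in 94 and IDH2R140W in 48, whereas the 191 lower genes divided as 63, 61 and 67. The median difference to the pooled IDH2 mean was 1.31 for the higher and −1.27 for the lower genes, and the median difference to the nearest line was 0.89 and −0.94. A gap of at least log2 1 to the nearest line was seen in 108 higher and 73 lower genes, and one of at least log2 2 in 15 and 4. Against single lines, 818 of all symbols were called for IDH2R140Q (5.5%), 1170 for IDH2R140W (7.86%) and 1115 for IDH2R172K (7.49%). Of the 502 genes, 180 were called against each of the 3 lines, 257 against 2 and 65 against 1. Parental cells lay nearer to the range of the IDH2 lines than to IDH1R132H for 290 of the 311 higher genes and 138 of the 191 lower ones. The measure counts any level inside the range of the 3 lines as at no distance, and the genes were picked because IDH1R132H lay apart. Both favour this outcome in advance for any single line, so the counts are a description and not a test. Parental cells had GM-CSF, and its part in these levels cannot be told apart from the genotype.

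Each IDH2 line was also set against the other 3 edited lines. With the same rule, IDH2R140Q gave 461 calls (3.1%) and 288 one-sided genes (1.94%), IDH2R140W 603 (4.05%) and 444 (2.98%), and IDH2R172K 711 (4.78%) and 568 (3.82%). IDH1R132H, with 682 and 502, stood below IDH2R172K and above the other two. These comparisons share all their libraries, so their counts are given side by side and were not tested against each other. Parental also lay nearer to the other 3 lines for 93.3% of the higher and 82.3% of the lower one-sided genes of IDH2R140Q, and for 82.5% and 72.6% of those of IDH2R172K. The shares were 69% and 38.7% for IDH2R140W, beside 93.2% and 72.3% for IDH1R132H, so this nearness was not a feature of IDH1R132H alone.

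**Figure D1:**
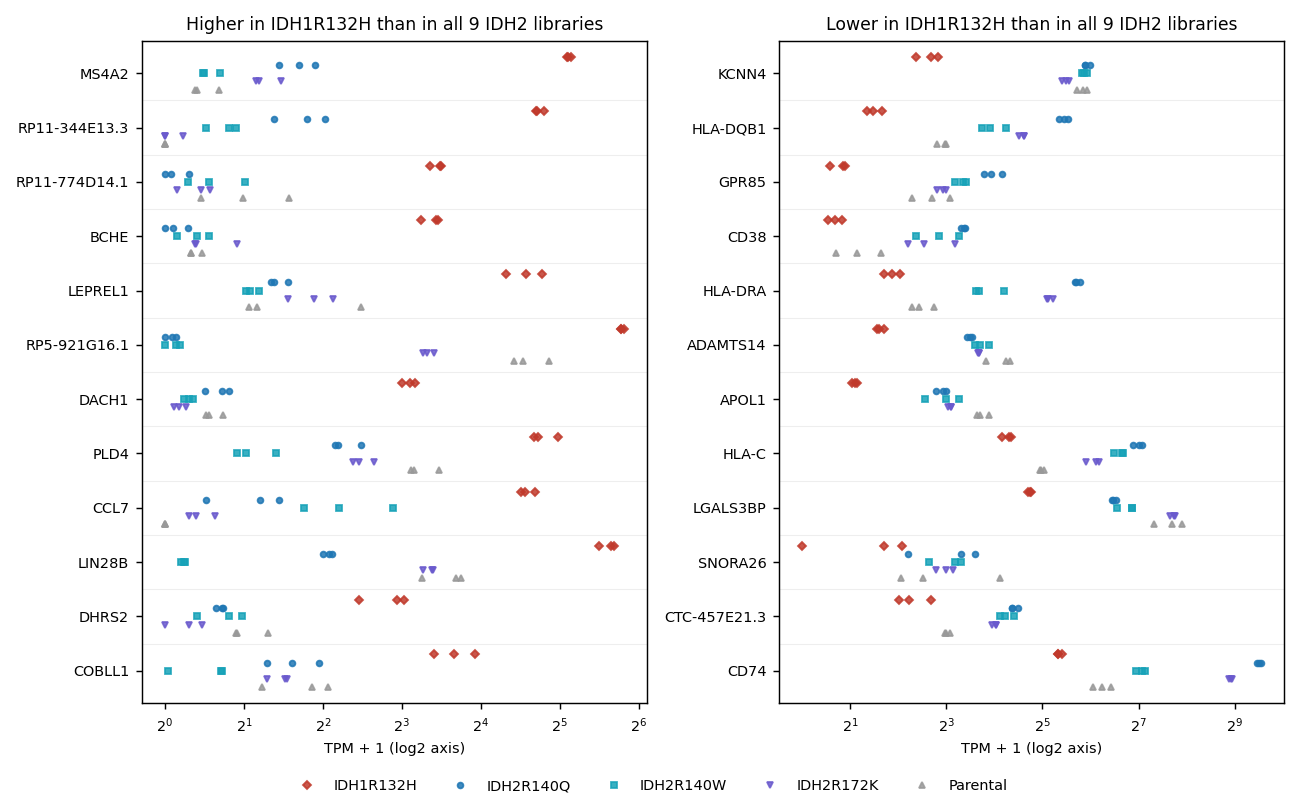
TPM + 1 on a log2 axis for the 12 higher genes (left) and 12 lower genes (right) with the widest gap to the nearest IDH2 line. Each point is 1 library, and colours mark the 5 groups. For each gene the 3 IDH1R132H points lie on one side of the 9 IDH2 points, from MS4A2 at 33.0 to 34.3 TPM down to CD74 at 38.9 to 41.7 TPM.

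The widest gap among the higher genes belonged to MS4A2, which encodes the beta subunit of the IgE receptor on mast cells and basophils (ENSG00000149534, hg38 chr11:60088261-60098466, plus strand). MS4A2 had 33.0, 34.3 and 33.5 TPM in IDH1R132H, against 1.71, 2.23 and 2.73 in IDH2R140Q, 0.41, 0.62 and 0.40 in IDH2R140W and 1.78, 1.22 and 1.28 in IDH2R172K. All 3 IDH1R132H libraries were far above the rest, including Parental at 0.413 ± 0.171 TPM (SD, n = 3), and the log2 difference was 3.94 (SE 0.13, limma adjusted p = 8.96e-11). FCER1A and FCER1G, the other chains of that receptor, were not called, with −0.31 and −0.08.

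LIN28B, an RNA-binding protein that blocks let-7 maturation in fetal and progenitor cells, had 44.1, 50.6 and 49.2 TPM in IDH1R132H. It had 3.22, 3.02 and 3.34 in IDH2R140Q, 0.19, 0.15 and 0.18 in IDH2R140W, and 9.48, 9.41 and 8.61 in IDH2R172K. The groups did not overlap, the IDH2 lines themselves spread widely, and the difference was 3.73 (SE 0.11, adjusted p = 3.31e-11). IGF2BP2, an mRNA-binding protein and let-7 target, was also higher, at 32.0, 34.0 and 29.6 TPM in IDH1R132H and at most 13 in the IDH2 libraries (2.80, adjusted p = 7.29e-08). Its relative IGF2BP1 was called (2.08) but overlapped with IDH2R172K, at 39.6, 36.8 and 35.5 TPM in IDH1R132H against 36.7, 36.1 and 52.6 in IDH2R172K. MEIS1, a homeobox factor of stem cells and megakaryocytes, completed the 4 higher among 23 stem and progenitor genes, with 24.9, 31.0 and 24.1 TPM against 2.66 to 19.5 in the IDH2 libraries (1.61). The 1 lower gene of that list was CD38, an NAD-consuming surface enzyme gained as progenitors mature, with 0.77, 0.60 and 0.45 TPM in IDH1R132H and 3.60 to 9.52 in the IDH2 libraries (−2.26, adjusted p = 4.02e-06).

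BCHE, which encodes butyrylcholinesterase, had 9.99, 9.80 and 8.5 TPM in IDH1R132H and at most 0.89 in any IDH2 library (3.03, adjusted p = 3.75e-09). DACH1, a transcriptional regulator, had 6.99, 8.0 and 7.56 TPM in IDH1R132H and at most 0.75 in the IDH2 libraries (2.7). Neither gene reached 1 TPM in Parental, so IDH1R132H was the only one of the 5 groups in which either did. PLD4, an endolysosomal exonuclease, had 25.5, 30.4 and 24.4 TPM in IDH1R132H, against 0.89 to 5.26 in the IDH2 libraries and 7.66 to 10.1 in Parental (2.83).

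CCL7, a monocyte-attracting chemokine, had 21.7, 24.6 and 22.6 TPM in IDH1R132H, against 1.73, 1.31 and 0.43 in IDH2R140Q, 2.39, 3.61 and 6.40 in IDH2R140W and 0.31, 0.23 and 0.55 in IDH2R172K (3.32, adjusted p = 5.93e-08). It was listed at 0 in the 3 Parental libraries. CXCL10 was the other higher gene of 12 chemokines tested, with 2.77 to 3.13 TPM in IDH1R132H and 0.17 to 1.33 in the IDH2 libraries (1.35), and the chemokine median was −0.09. LEPREL1, DHRS2 and COBLL1 were also among the 12, with 18.9 to 26.4, 4.48 to 7.12 and 9.63 to 14.2 TPM in IDH1R132H against at most 3.36, 0.96 and 2.88 in the IDH2 libraries. The remaining 3 had clone-based symbols that the annotation did not match. RP5-921G16.1 was at 53.6, 55.3 and 53.6 TPM in IDH1R132H, against 0 to 0.14 in IDH2R140Q and IDH2R140W and 8.65 to 9.65 in IDH2R172K, with 20.4 to 28.2 in Parental.

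KCNN4 (ENSG00000104783, hg38 chr19:43766533-43781261, minus strand) led the lower genes. It encodes the calcium-activated potassium channel of red cells and lymphocytes, and its level was 6.13, 5.45 and 4.16 TPM in IDH1R132H, against 58.1, 58.3 and 62.2 in IDH2R140Q, 55.4, 57.4 and 60.1 in IDH2R140W and 41.3, 45.8 and 44.1 in IDH2R172K. The 9 IDH2 libraries and the Parental libraries, at 55.9 ± 4.07 TPM (SD, n = 3), lay close together, and IDH1R132H alone was low (−3.13, SE 0.09, adjusted p = 2.58e-11). ADAMTS14, a procollagen-processing protease, and APOL1, a secreted lipoprotein component, had the same shape. ADAMTS14 was at 1.94 to 2.27 TPM in IDH1R132H, 9.81 to 13.8 in the IDH2 libraries and 13.1 to 19.1 in Parental (−2.01), and APOL1 at 1.06 to 1.2 TPM in IDH1R132H, 4.90 to 8.61 in the IDH2 libraries and 11.5 to 13.7 in Parental (−1.88). GPR85, an orphan receptor, was at 0.50 to 0.85 TPM in IDH1R132H, against 5.97 to 16.9 in the IDH2 libraries (−2.62). SNORA26, a small nucleolar RNA summed over 12 rows, was called at an adjusted p of 0.00836 but not without IDH1R132H replicate 2 (limma adjusted p = 0.0810).

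HLA class II genes, which present antigens taken up by a cell, were lower in IDH1R132H. Of 13 tested, 9 were lower in IDH1R132H and none higher, 8 of them on one side of all 9 IDH2 libraries, and the median difference was −1.47. CD74, the invariant chain that escorts class II molecules (ENSG00000019582, hg38 chr5:150401637-150412929, minus strand), had 39.2, 38.9 and 41.7 TPM in IDH1R132H, against 752, 727 and 703 in IDH2R140Q, 140, 133 and 121 in IDH2R140W and 484, 489 and 471 in IDH2R172K. IDH1R132H was lowest throughout and the 3 IDH2 lines were well separated from each other, with a difference of −3.14 (SE 0.07, adjusted p = 2.33e-12). Parental cells, with 84.9, 65.0 and 74.8 TPM, stood between IDH1R132H and the IDH2 lines.

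HLA-DQB1 had 1.79, 2.18 and 1.56 TPM in IDH1R132H, against 45.2, 42.9 and 39.4 in IDH2R140Q, 12.5, 14 and 18 in IDH2R140W and 21.7, 23.6 and 23.6 in IDH2R172K (−3.16, adjusted p = 1.43e-10). HLA-DRA had 2.28, 3.08 and 2.64 TPM in IDH1R132H and 11.3 to 53.6 in the IDH2 libraries (−3.03). HLA-DQA1, at 0.13, 0 and 0.18 TPM in IDH1R132H and 4.50 to 14.8 in the IDH2 libraries, differed by −3.11. The order of the lines was the same in these genes, with IDH2R140Q highest, IDH2R172K next, then IDH2R140W, and IDH1R132H lowest. CIITA, the coactivator that switches class II genes on, was the called member that overlapped, with 1.42, 2.45 and 2.30 TPM in IDH1R132H and 1.57, 2.07 and 1.63 in IDH2R140W, against 21.4 to 23.5 in IDH2R140Q and 7.44 to 8.52 in IDH2R172K. The DNA-binding partners RFX5, RFXAP and RFXANK were not called, with 0.01, 0.00 and −0.10. IFI30, a lysosomal reductase that prepares antigens, was lower by a smaller amount (−1.09), and its difference was −0.92 without the IDH2R140Q line.

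Classical class I genes, which present peptides made inside the cell, were lower as well. HLA-C had 16.8, 18.8 and 19.5 TPM in IDH1R132H, against 133, 127 and 118 in IDH2R140Q, 99.4, 101 and 89.3 in IDH2R140W and 59.1, 68.1 and 71.5 in IDH2R172K (−2.28, adjusted p = 5.95e-11). HLA-B was also on one side (−2.14). Of 12 class I genes 3 were called, all lower, and the list median was −0.43. B2M, the shared light chain, was below all 9 IDH2 libraries but by less than the threshold, with 1028, 1111 and 1091 TPM against 1479 to 1811 (−0.56). NLRC5, the class I coactivator, stood at −0.96 and was not called. The HLA genes are close copies of one another and, apart from HLA-DRB5, each was summed over 6 to 8 rows of the table, so the division of reads among them is uncertain. Without symbols on more than 1 row, class II kept 4 calls and class I none, by the loss of those genes from the table.

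**Figure D2:**
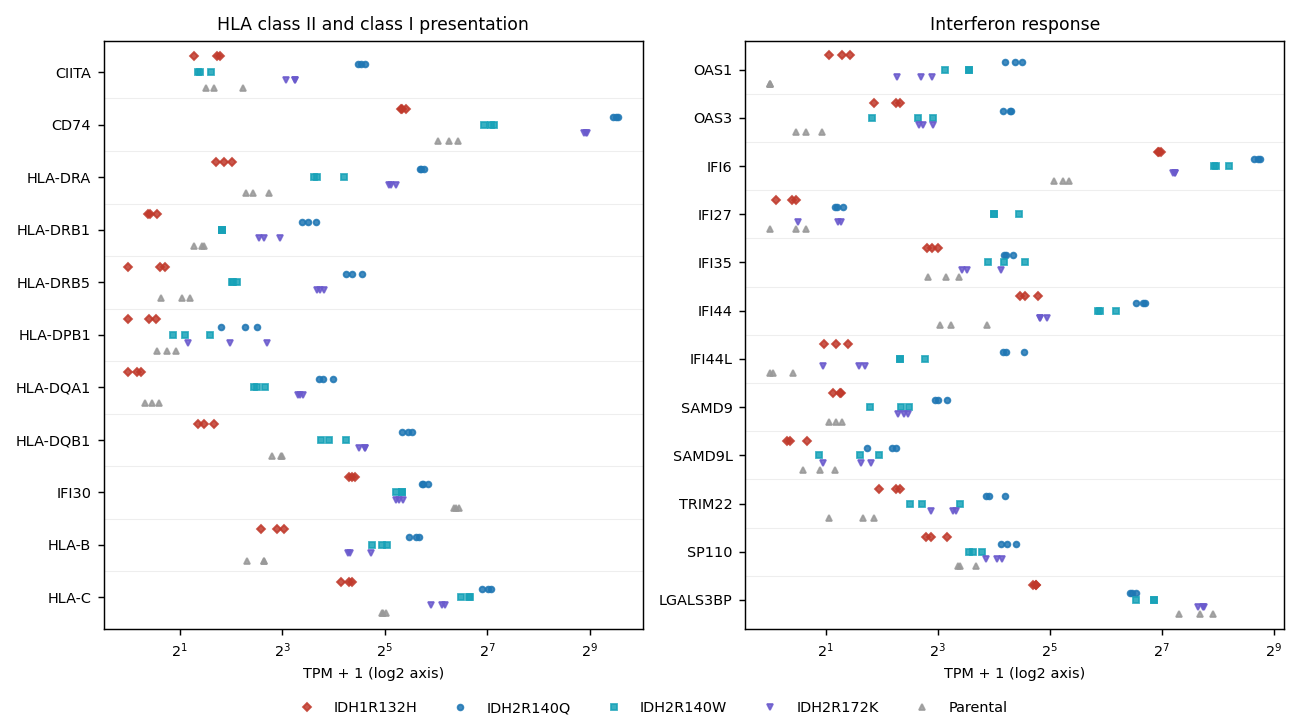
TPM + 1 on a log2 axis for HLA presentation genes (left) and called interferon response genes (right), 1 point per library. For CD74 the 3 IDH1R132H libraries sit at 38.9 to 41.7 TPM, below all IDH2 libraries at 121 to 752, while CIITA overlaps with IDH2R140W.

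Interferon response genes are induced through STAT and IRF factors. Of 55 tested, 16 were called lower, 12 of them on one side, and none was called higher, with a median of −0.36. With no demand on size, 29 were lower and 7 higher by adjusted p, which 4881 of all 14881 symbols passed. Of the 55, 17 lay below and 4 above all 9 IDH2 libraries. The median was −0.15 against IDH2R172K. OAS1, which makes the signal that activates RNase L, had 1.70, 1.45 and 1.07 TPM in IDH1R132H, against 21.6, 17.4 and 19.7 in IDH2R140Q, 10.7, 10.8 and 7.75 in IDH2R140W and 6.44, 5.51 and 3.80 in IDH2R172K (−2.21, adjusted p = 7.29e-08). IDH1R132H was lowest among the edited lines, while OAS1 was listed at 0 in the 3 Parental libraries. LGALS3BP, a secreted galectin-binding glycoprotein, had 26.1, 25.9 and 24.9 TPM in IDH1R132H and 85.8 to 215 in the IDH2 libraries, and here Parental was high too, at 158 to 240 (−2.25, adjusted p = 2.26e-09). IFI6, a mitochondrial survival protein, had 123, 126 and 121 TPM in IDH1R132H, against 402 to 431 in IDH2R140Q, 244 to 294 in IDH2R140W and 146 to 150 in IDH2R172K, so its distance to IDH2R172K was small (−1.03 pooled, −0.26 to IDH2R172K). IFI27, an interferon-induced mitochondrial protein, had 0.08 to 0.39 TPM in IDH1R132H, against 15 to 20.8 in IDH2R140W and 0.41 to 1.47 in the other two lines (−1.79). Without the IDH2R140Q line 7 were lower and 2 higher. IRF1, a factor that drives the response, was not called (−0.02).

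Reference promoters are shown for 4 of the lower genes that held the searched element of their list, as class II and interferon genes were lower together. The sequences are from RefSeq (GRCh38.p14) and give the 250 bases before the start site, 5′ to 3′ along the gene, while the search covered 300 bases that include 50 after the start. Capitals in the HLA genes mark the Y box CTGATTGG, which binds the factor NF-Y in class II promoters, and in the interferon genes the response element GAAA, any 2 bases, GAAA, each searched on both strands. HLA-DQB1 is at chr6:32666658-32666907, HLA-DRB1 at chr6:32589849-32590098, IFI6 at chr1:27672193-27672442 and LGALS3BP at chr17:78979924-78980173, all on the minus strand.
HLA-DQB1 promoter: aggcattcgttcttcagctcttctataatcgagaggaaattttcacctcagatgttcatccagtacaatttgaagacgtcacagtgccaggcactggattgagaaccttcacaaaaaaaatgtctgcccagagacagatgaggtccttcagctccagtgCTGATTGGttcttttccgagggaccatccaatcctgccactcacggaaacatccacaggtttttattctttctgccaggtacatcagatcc
HLA-DRB1 promoter: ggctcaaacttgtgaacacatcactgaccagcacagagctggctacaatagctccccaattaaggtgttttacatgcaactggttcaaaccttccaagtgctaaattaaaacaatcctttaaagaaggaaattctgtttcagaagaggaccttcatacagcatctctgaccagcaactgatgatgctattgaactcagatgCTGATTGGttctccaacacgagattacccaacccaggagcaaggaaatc
IFI6 promoter: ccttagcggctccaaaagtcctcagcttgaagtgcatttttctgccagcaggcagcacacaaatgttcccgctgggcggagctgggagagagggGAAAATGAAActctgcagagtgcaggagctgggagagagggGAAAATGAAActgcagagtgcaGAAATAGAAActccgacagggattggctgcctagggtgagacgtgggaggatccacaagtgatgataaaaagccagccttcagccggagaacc
LGALS3BP promoter: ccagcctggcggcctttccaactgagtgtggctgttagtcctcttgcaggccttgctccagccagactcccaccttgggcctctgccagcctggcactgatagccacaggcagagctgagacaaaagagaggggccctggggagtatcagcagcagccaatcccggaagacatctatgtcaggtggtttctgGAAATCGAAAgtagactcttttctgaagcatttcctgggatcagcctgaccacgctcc
A promoter was on hand for 7118 tested symbols, of which 2.7% held the interferon element and 6.31% the Y box. Among one-sided lower genes 12 of 92 promoters (13%) held the interferon element and 13 (14.1%) the Y box, and among one-sided higher genes 2.61% and 3.48% of 115. In the interferon list 24 of 32 promoters held the element (75%), and among its called members 7 of 11 (63.6%). In the class II list 3 of 8 promoters held the Y box (37.5%), and among its called members 3 of 7 (42.9%). The interferon element was in 0 of those 8. A match of letters is a description and does not show that a factor was bound.

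Cells switch on genes of the ATF4 pathway under amino acid shortage and other stress. Of 40 tested, 8 were higher in IDH1R132H, all on one side of the 9 IDH2 libraries, none was lower and 32 were not called, with a median of 0.62 pooled and 0.28 against IDH2R140Q. DDIT4, an inhibitor of the growth kinase mTORC1, had 158, 159 and 163 TPM in IDH1R132H, against 37.7, 38.2 and 35.7 in IDH2R140Q, 56.7, 54.2 and 52.0 in IDH2R140W and 15.5, 15.8 and 12.4 in IDH2R172K (2.33, SE 0.07, adjusted p = 3.84e-11). TRIB3, a pseudokinase induced by ATF4, had 88.3, 96.9 and 86.6 TPM in IDH1R132H and 23.2 to 36.5 in the IDH2 libraries (1.56, adjusted p = 1.38e-09). For both genes IDH1R132H was highest and IDH2R172K lowest of the edited lines, and Parental stood at 97.4 to 108 TPM for DDIT4 and 37.2 to 42.2 for TRIB3.

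CHAC1, a glutathione-degrading enzyme, had 19.7, 19.1 and 18.8 TPM in IDH1R132H, against 9.01 to 9.59 in IDH2R140Q, 4.26 to 5.27 in IDH2R140W and 1.48 to 2.71 in IDH2R172K (1.85, adjusted p = 2.96e-08). CTH and CBS, which make cysteine from homocysteine, were at 23.3 to 24.7 and 50.2 to 59.3 TPM in IDH1R132H, against 3.25 to 14.1 and 15.8 to 32.5 in the IDH2 libraries (1.49 and 1.13). ATF3, ADM2 and the cystine importer SLC7A11 were the other higher members, at 1.39, 1.53 and 1.23. ATF4 itself had 455, 461 and 463 TPM in IDH1R132H and 227 to 373 in the IDH2 libraries, a one-sided difference below the threshold (0.64). ASNS, the asparagine synthetase, was not called and overlapped, at 30.5 to 36.0 TPM in IDH1R132H against 28.8 to 32.8 in IDH2R140Q and IDH2R140W and 8.84 to 9.65 in IDH2R172K. ASNS is the last gene of a stretch of chromosome 7, described below, where the median difference of 25 genes was −0.84. By adjusted p alone 27 of the 40 were higher and 1 lower, beside 4881 of all 14881 symbols that passed either way. Without the IDH2R172K line 5 members were higher and the median was 0.40, and without IDH2R140Q 12 were higher and 1 lower.

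The promoter of CHAC1 is shown as the called ATF4 gene that held the C/EBP-ATF response element TGATGNAA, marked in capitals as its reverse complement (RefSeq, GRCh38.p14, chr15:40953221-40953470, plus strand, 250 bases before the start, both strands searched).
CHAC1 promoter: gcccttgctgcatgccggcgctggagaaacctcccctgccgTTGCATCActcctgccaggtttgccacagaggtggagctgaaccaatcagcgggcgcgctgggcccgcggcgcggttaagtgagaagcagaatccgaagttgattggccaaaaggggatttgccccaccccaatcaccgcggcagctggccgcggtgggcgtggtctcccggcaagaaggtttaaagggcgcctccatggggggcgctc
That element stood in 1.43% of all 7118 promoters, in 4 of the 20 promoters on hand for the list and in 1 of the 4 of its called members.

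Genes guarded by NRF2, the regulator of antioxidant enzymes, were higher in 3 of 30, namely SRXN1, OSGIN1 and SLC7A11, beside 2.66% of all symbols. SRXN1, which repairs oxidised peroxiredoxins, had 139, 150 and 141 TPM in IDH1R132H, against 85.5 to 90.6 in IDH2R140Q, 56.6 to 62.3 in IDH2R140W and 48.3 to 51.3 in IDH2R172K (1.15, adjusted p = 1.67e-09). Without the IDH2R172K line each of the 3 fell short of the size asked for, at 0.98, 0.77 and 0.83. Of the genes for glycolysis and the hypoxia response, 3 of 34 were higher, where 2.66% of all symbols were called higher. PFKFB3, which raises glycolytic flux, had 58.0 to 60.8 TPM in IDH1R132H and 17.4 to 35.5 in the IDH2 libraries (1.08). EGLN3 is an oxygen-sensing prolyl hydroxylase (1.22). PFKFB3 fell short without the IDH2R140W line (0.92). NDRG1 lay at the threshold (1.00) and was not called under 3 other ways of scaling or weighting, without several single libraries, at the lowest 0.93 without IDH1R132H replicate 1, or without the IDH2R172K line (0.74).

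Of the called haemoglobin genes, HBG1 and HBG2 differed in direction between the IDH2 lines they were set against. HBA1, HBA2, HBB and HBE1 had a lower group mean in IDH1R132H than in each IDH2 line. Of 9 globins tested 6 were lower in IDH1R132H in the pooled comparison and none higher, 3 on one side, and the median was −1.80. Without the IDH2R172K line 4 were lower and 1 higher. HBB, the adult beta chain, had 1.30, 2.19 and 0.44 TPM in IDH1R132H, against 5.16, 4.63 and 4.49 in IDH2R140Q, 102, 102 and 134 in IDH2R140W and 39.5, 39.5 and 45.6 in IDH2R172K (−3.78, adjusted p = 2.81e-09). HBA1 and HBA2, the near-identical alpha chains between which reads may be split, were at 115 to 123 and 41.8 to 58.4 TPM in IDH1R132H, 190 to 406 and 121 to 301 in the IDH2 libraries, and higher still in Parental. For all 3 genes IDH2R140Q was the nearest line.

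The fetal chains HBG1 and HBG2 did not follow that order. HBG2 had 18.4, 29.9 and 23.7 TPM in IDH1R132H, against 5.42, 7.49 and 5.31 in IDH2R140Q, 113, 127 and 158 in IDH2R140W and 607, 692 and 728 in IDH2R172K. IDH1R132H therefore stood above IDH2R140Q and below the other two, with a difference of 1.81 to IDH2R140Q and −1.80 to the pooled lines. For HBG1 these were 1.47 and −1.89. Against IDH2R140Q the globin median was −0.04, and without the IDH2R172K line it was −0.48. Of 16 haem synthesis genes 2 were lower and none higher, beside 1.92% of all symbols called lower. The median was −0.17, and none was called without the IDH2R172K line. ALAS2, the red cell enzyme of the first step, had 1.27, 2.79 and 3.06 TPM in IDH1R132H, against 2.75 to 4.30 in IDH2R140Q, 5.22 to 8.57 in IDH2R140W and 23.4 to 27.1 in IDH2R172K, and so overlapped with IDH2R140Q (−1.56).

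Among 33 erythroid factors and membrane proteins, 7 were lower, 3 higher and 23 not called, with a median of −0.02. Over all symbols 1.92% were called lower and 2.66% higher. EPB42, protein 4.2 of the red cell skeleton, had 1.33, 2.31 and 1.92 TPM in IDH1R132H and 4.94 to 15.3 in the IDH2 libraries (−1.71). ANK1, the ankyrin that ties the skeleton to the membrane, had 13.7 to 15.3 TPM in IDH1R132H and 25.6 to 62.5 in the IDH2 libraries (−1.38). The near-identical blood group genes RHD and RHCE were lower too (−1.49 and −1.45), as were CA1, AHSP and KCNH2, none of these 3 on one side. The 3 higher genes, GYPB, GYPE and CA2, were not on one side of the 9 IDH2 libraries, and 1 gene of the list was higher without IDH1R132H replicate 2 or without the IDH2R140W line. KLF1, the master factor of red cell genes, was below all 9 IDH2 libraries without reaching the threshold, at 67.1 to 72.6 TPM in IDH1R132H against 103 to 144 (−0.75).

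**Figure D3:**
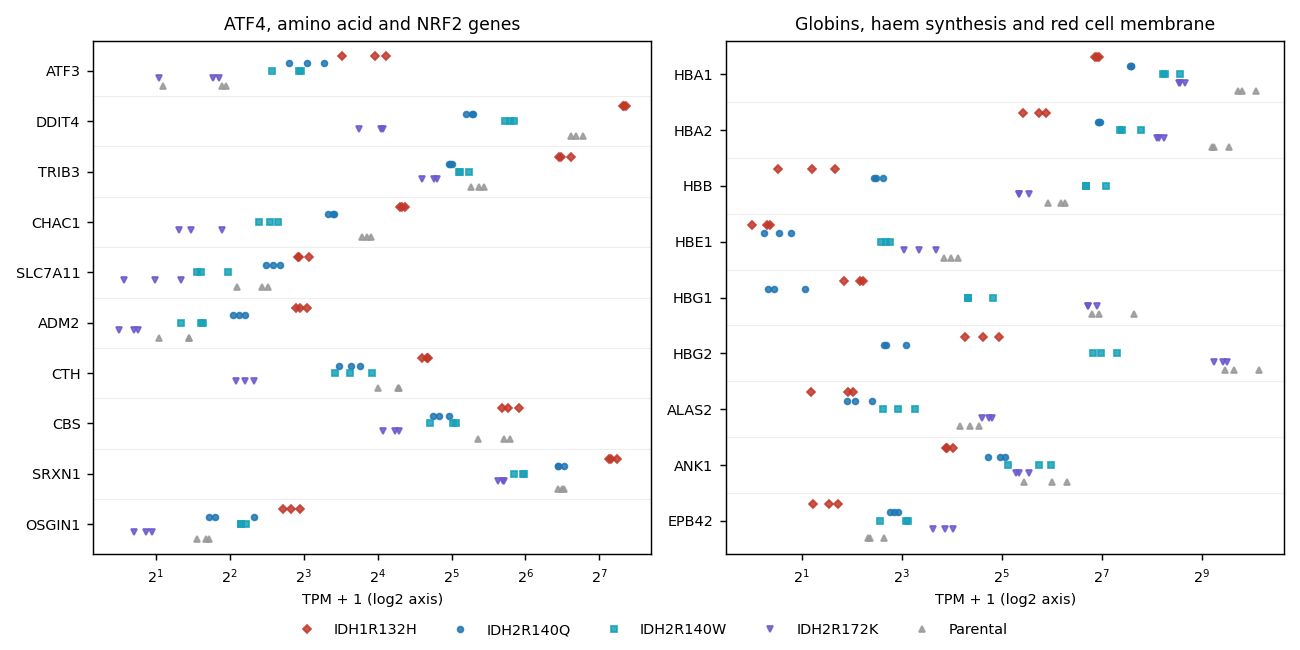
TPM + 1 on a log2 axis for ATF4, amino acid and NRF2 genes (left) and for globins, haem synthesis and red cell membrane genes (right), 1 point per library. IDH1R132H lies at the right end of the ATF4 rows, as for DDIT4 at 158 to 163 TPM, and at the left end of HBB, while for HBG2 it lies between IDH2R140Q and IDH2R140W.

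Megakaryocyte and platelet genes were called higher in 6 of 21 and lower in none, 5 of the 6 on one side, beside 2.66% of all symbols called higher. With no demand on size, 12 were higher and 6 lower by adjusted p, the lowest at −0.80, beside 4881 of all 14881 symbols that passed. Of the 21, 6 lay above and 2 below all 9 IDH2 libraries. Calls were 4 higher and 1 lower without the IDH2R140W line, and 7 and 1 without IDH2R172K. RAB27B, which moves platelet granules, had 30.8, 29.2 and 31.2 TPM in IDH1R132H, against 15.9, 11 and 11.9 in IDH2R140Q, 1.18, 2.72 and 2.32 in IDH2R140W and 12.8, 10.8 and 10.5 in IDH2R172K (1.98, adjusted p = 7.62e-07). GP9, part of the von Willebrand factor receptor, had 16.0 to 18.9 TPM in IDH1R132H and 3.60 to 11.5 in the IDH2 libraries (1.33). The list median was 0.55 pooled, 1.21 against IDH2R140W, 0.05 against IDH2R140Q and 0.14 against IDH2R172K.

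Mast cell, basophil and eosinophil genes, the list that holds MS4A2, were otherwise lower or not called, with 7 of 23 lower. CLC, the Charcot-Leyden crystal protein, had 0.57, 0.32 and 0 TPM in IDH1R132H and 1.72 to 10.6 in the IDH2 libraries (−2.07). HDC, which makes histamine, had 0.47, 1.14 and 0.26 TPM in IDH1R132H, against 2.08 to 3.2 in IDH2R140Q, 4.87 to 6.64 in IDH2R140W and 107 to 113 in IDH2R172K (−3.13). The tryptase TPSB2, close in sequence to TPSAB1, had 1.71 to 3.31 TPM in IDH1R132H, against 53 to 72.1 in IDH2R140W and 3.36 to 5.14 in the other two lines, and it was −0.66 and not called without IDH2R140W. Without that line 3 of the list were lower and 3 higher. Of 18 monocyte and macrophage genes 3 were lower and 1 higher, and the higher one, the adaptor TYROBP, had 371 to 410 TPM in IDH1R132H, between 75.3 to 93.3 in IDH2R140Q and IDH2R140W and 572 to 608 in IDH2R172K. The balance of that list rested on IDH2R172K, as without it 3 were higher and 1 lower, with a median of 0.04.

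Genes of the NF-kB pathway, which drives inflammatory transcription, were higher in 4 of 28, beside 2.66% of all symbols. All 4 were on one side, the median was 0.19, and 7 were higher without the IDH2R140W line. RELB, a subunit of the noncanonical pathway, had 46.3, 48.9 and 43.6 TPM in IDH1R132H and 16.5 to 25.7 in the IDH2 libraries (1.16, adjusted p = 3.42e-07). TNFAIP3, the A20 enzyme that shuts the pathway down, had 11.3 to 13.7 TPM against 2.26 to 7.98 (1.45). TNFAIP2 and BIRC3 were the other two, at 1.17 and 1.40, and IL1A, the 1 lower gene, was at the threshold (−1.01) and was not called after leaving out any of 6 libraries in turn.

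Cytokines and growth factors made by the cells were lower in 5 of 18, 4 of them on one side, and none was called higher. By adjusted p alone 10 were lower and 5 higher, beside 4881 of all 14881 symbols that passed. In this list 4 members lay above all 9 IDH2 libraries. Called higher were 1, 2 and 1 without IDH2R140Q, IDH2R140W and IDH2R172K. OSM, a cytokine of the interleukin-6 family, had 1.83, 2.38 and 1.47 TPM in IDH1R132H, against 6.06, 5.28 and 6.88 in IDH2R140Q, 34.6, 40.3 and 34.5 in IDH2R140W and 9.71, 7.40 and 5.70 in IDH2R172K (−2.19, adjusted p = 4.76e-08). CSF2, which encodes GM-CSF itself, had 1.23, 1.26 and 1.56 TPM in IDH1R132H, against 1.80 to 1.98 in IDH2R140Q, 9.50 to 11.7 in IDH2R140W and 9.17 to 10.5 in IDH2R172K (−1.59, adjusted p = 4.46e-08). IDH1R132H was lowest for both, and for CSF2 it was close to IDH2R140Q (−0.30). TNFSF10, the death ligand TRAIL, had 15.5 to 18.6 TPM in IDH1R132H and 29.5 to 113 in the IDH2 libraries (−1.59), and CSF1 and LIF made up the 5.

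Of 27 cytokine receptors 2 were lower and 2 higher, where 1.92% of all symbols were called lower and 2.66% higher. CSF2RB, the signalling chain shared by the GM-CSF, interleukin-3 and interleukin-5 receptors, had 54.9, 55.8 and 52.2 TPM in IDH1R132H, against 115 to 120 in IDH2R140Q, 130 to 186 in IDH2R140W and 118 to 123 in IDH2R172K, with 50.1 to 77.3 in Parental (−1.27, adjusted p = 2.32e-06). Of the edited lines, IDH1R132H alone lay within the Parental range. IL1RAP, the co-receptor of interleukin-1, had 61.9, 63.8 and 54.9 TPM in IDH1R132H and 16.1 to 32.0 in the IDH2 libraries (1.24). KDR, a receptor for vascular growth factor, had 59.5, 59.7 and 59.1 TPM in IDH1R132H, against 13.3 to 14.2 in IDH2R140Q, 5.58 to 9.78 in IDH2R140W and 28.4 to 31.7 in IDH2R172K (1.93, adjusted p = 8.00e-08).

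TGF-beta, BMP and ID genes were higher in 5 of 27 and lower in 2, beside 2.66% and 1.92% of all symbols. SMAD7 and SKIL, both inhibitors of TGF-beta signalling, had 8.36 to 10.6 and 64.5 to 70.4 TPM in IDH1R132H, against 1.70 to 3.35 and 8.32 to 35.3 in the IDH2 libraries (1.66 and 1.69). BMP6, a ligand that controls hepcidin, had 39.9, 44.4 and 41.5 TPM against 6.47 to 25.4 (1.46). SMAD6 and BMPER were called but overlapped with IDH2R172K. ID2, an inhibitor of E proteins, was lower, at 23.4 to 28.8 TPM in IDH1R132H and 44.5 to 124 in the IDH2 libraries (−1.34), and it was at −0.97 and not called without the IDH2R172K line. FST, the activin trap follistatin, was also lower (−1.20) and was at −0.99 without IDH1R132H replicate 2.

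Among 46 adhesion and matrix genes 6 were higher, 3 of them on one side, and 2 lower, both on one side. Over all symbols 2.66% were called higher and 1.92% lower. CDH5, LAMC1 and THBS1 were the higher genes that overlapped. Without the IDH2R140Q line 9 were higher, and without IDH2R140W 4. ITGB5, an integrin subunit that binds vitronectin, had 43.9, 38.7 and 39.4 TPM in IDH1R132H, against 14.1 to 21.1 in IDH2R140Q, 7.43 to 8.13 in IDH2R140W and 4.92 to 7.29 in IDH2R172K (2.00, adjusted p = 1.42e-07). SELPLG, the ligand by which leukocytes roll on selectins, was lower, with 14.3 to 18.8 TPM in IDH1R132H and 29 to 66.3 in the IDH2 libraries (−1.41), and the other lower gene, ITGAM, was at −0.86 and not called without the IDH2R172K line. Among BCL2 family genes the death-promoting BBC3 was higher (1.00) and BIK lower (−1.14) of 18 tested, and BBC3 lay at the threshold, with 0.96 after median-ratio scaling. Without the IDH2R140W line neither was called.

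Metabolic genes next to the mutated enzymes changed little by the rule used. None of 10 IDH and 2-hydroxyglutarate enzymes, 11 NADPH genes or 16 branched-chain amino acid genes was called, and the list medians were −0.02, −0.15 and −0.10. By adjusted p alone, with no demand on size, 1 of those 10 was higher and 4 lower, where 4881 of all 14881 symbols passed. The counts were 2 and 3 for NADPH genes, and 3 and 5 for branched-chain genes. MDH1, LDHA and LDHB were below all 9 IDH2 libraries (−0.37, −0.16 and −0.25). ME3 of the NADPH list was below them too (−0.86, limma adjusted p = 7.86e-05). IDH3B, a subunit of the NAD-linked mitochondrial isocitrate dehydrogenase, was above all 9 IDH2 libraries at 257 to 277 TPM, against 182 to 237 (0.38). ME1, the cytosolic malic enzyme that makes NADPH, had 80.9 to 83.6 TPM, between IDH2R140Q at 91.5 to 99.8 and the other two lines at 28.9 to 51.7 (0.64). Of 24 genes of the citric acid cycle and glutamine use, DLD was the 1 called. DLD, the shared E3 subunit of the pyruvate and 2-oxoglutarate dehydrogenase complexes, had 59.9, 64.8 and 66.5 TPM in IDH1R132H, against 144 to 162 in IDH2R140Q, 123 to 138 in IDH2R140W and 144 to 151 in IDH2R172K (−1.16, adjusted p = 4.54e-09).

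The 2-oxoglutarate dioxygenases, the enzymes that 2-hydroxyglutarate can block, were higher in 3 of 42 and lower in none, with a median of 0.19. Over all symbols 2.66% were called higher and 1.92% lower. The 3 were LEPREL1, a prolyl 3-hydroxylase of collagen (3.09), EGLN3 (1.22) and JHDM1D, a histone demethylase (1.09), and JHDM1D was at 0.98 without IDH1R132H replicate 3 and 0.97 without IDH2R140W replicate 3. Of 10 genes of DNA methylation and demethylation 1 was higher, and 1 call says little of the list. GADD45A, a stress gene assigned a role in demethylation, had 249.8, 254.6 and 237.8 TPM in IDH1R132H, against 130.3 to 133.9 in IDH2R140Q, 111 to 114 in IDH2R140W and 63.7 to 78.2 in IDH2R172K (1.27, adjusted p = 2.45e-09). TET2 and DNMT3A were not called, at −0.09 and 0.17.

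Transcripts of the mitochondrial genome were lower in IDH1R132H as a share of the library, without any of the 13 passing the threshold of size. They held 2.41% to 2.73% of the TPM in IDH1R132H, against 4.57% to 5.38% in IDH2R140Q, 3.21% to 3.63% in IDH2R140W and 3.49% to 3.63% in IDH2R172K, so the shares did not overlap. All 13 differences were below 0, with a median of −0.60, 11 had an adjusted p under 0.05 and 6 were on one side of all 9 IDH2 libraries. MT-CO3, a subunit of cytochrome oxidase, had 3744 to 4164 TPM in IDH1R132H and 4923 to 7401 in the IDH2 libraries (−0.60). Without the IDH2R140W line 3 of the 13 were called. Nuclear genes of the respiratory chain were not called in any of 71 cases, with a median of −0.07. Fewer such transcripts and a change in the rest of the RNA cannot be told apart in TPM.

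Several large groups gave no call, namely 73 ribosomal protein genes, 38 mitosis genes, 31 genes of DNA replication, 32 of homologous recombination, 18 HOXA and HOXB genes, 14 neutrophil granule genes and 6 metallothioneins. By adjusted p alone 11 mitosis genes were higher and 4 lower, as were 2 and 14 ribosomal protein genes, 6 and 9 replication genes, 0 and 5 of homologous recombination, 5 and 0 HOX genes, 3 and 5 neutrophil genes and 1 and 0 metallothioneins. Over all symbols 4881 of 14881 passed by adjusted p alone, so passing in this way was common and these counts are only a description. Without the IDH2R172K line 1 neutrophil gene was called higher and 2 lower. Of 24 cholesterol synthesis genes 15 were higher and 4 lower by adjusted p alone, with a median of 0.41, though 0.09 against IDH2R140Q. With the size asked for, 1 of them was called, which was lower, while without the IDH2R140Q line 5 were called higher. Of 22 ERK feedback genes 12 were higher by adjusted p alone and none lower, with a median of 0.46. PHLDA1 was the 1 called there (1.12), and it fell short without IDH2R140Q (0.98) and without IDH2R172K (0.95). STAT5 targets had OSM and LIF as their lower members of 22. Fatty acid genes had SCD5 of 21 (−1.36), and p53 targets had BBC3 of 21 as the 1 higher. With 1.92% of all symbols called lower and 2.66% higher, a single call says little of a list.

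**Figure D4:**
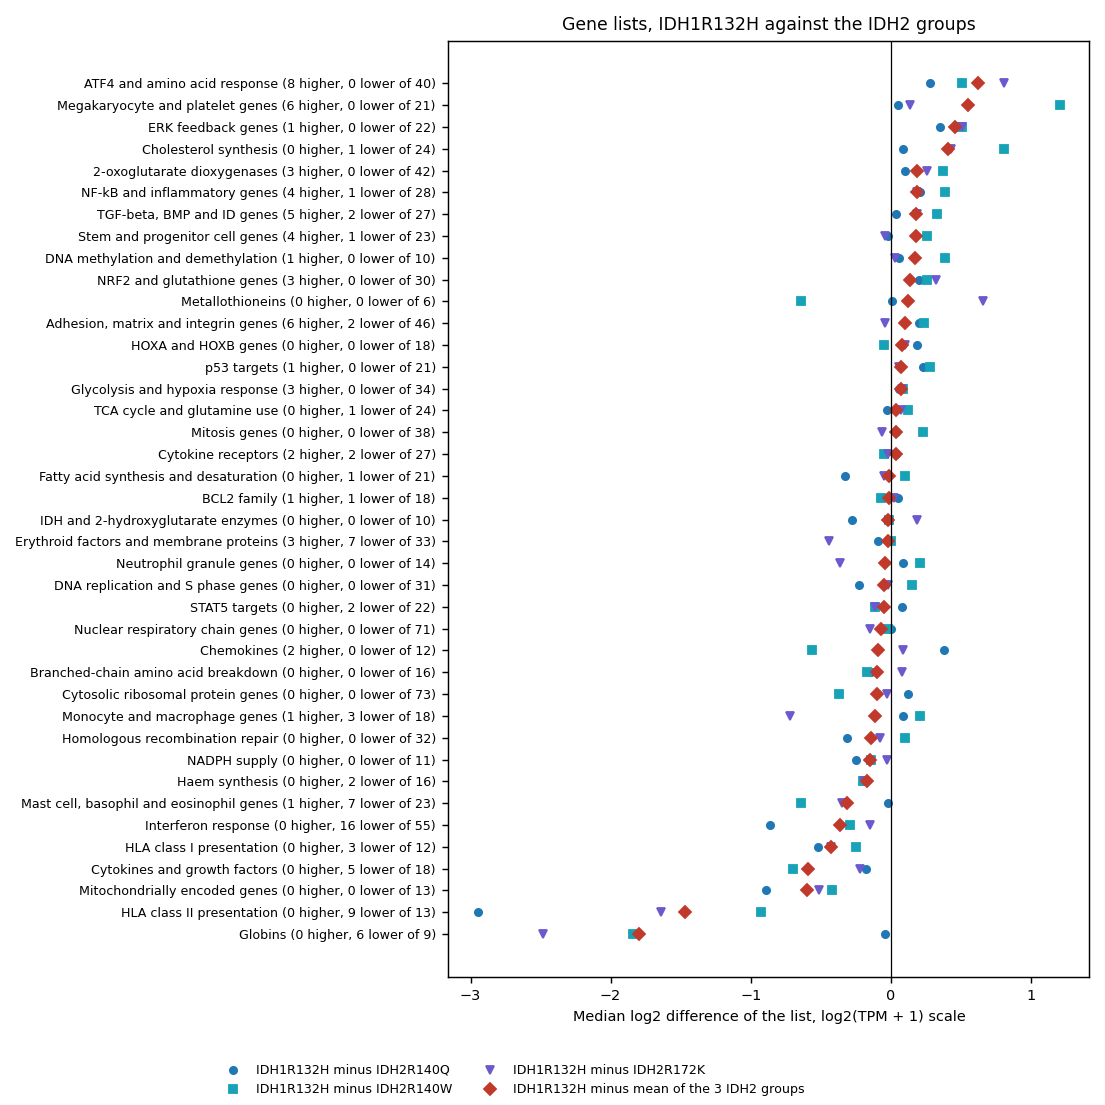
Median log2 difference of each gene list, IDH1R132H minus the mean of the 3 IDH2 groups (diamonds) and minus each IDH2 group (other symbols), with the number of called members beside each list name. HLA class II lies left of 0 against all 3 lines at −2.95, −0.93 and −1.64, whereas the globin median is −0.04 against IDH2R140Q.

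Some of the one-sided genes lay in stretches of chromosome where most genes differed in the same direction between IDH1R132H and the pooled IDH2 lines. For each of 11783 protein-coding genes with a position, the median difference of the 10 neighbours on each side was taken, the gene itself left out. That median was at least 0.4 for 33 of 261 one-sided higher genes (12.6%), against 2.64% of all genes, and −0.4 or less for 18 of 166 one-sided lower genes (10.8%), against 1.45%. The lowest runs of 25 genes lay on chromosome 7, from SRI to ASNS (88205118 to 97872542, median −0.84), from TECPR1 to ZNF3 (98214624 to 100082548, −0.60) and from PSMC2 to LRRN3 (103344254 to 111562517, −0.85), and on chromosome 18 from VPS4B to PARD6G (63389190 to 80247546, −0.83). The highest lay on chromosome 7 from BPGM to TBXAS1 (134646808 to 140020325, 0.71), on chromosome 10 from RBM17 to FAM107B (6088987 to 14774897, 0.62), on chromosome 3 from ETV5 to ACAP2 (186046308 to 195443078, 0.60) and on chromosome 19 from FXYD1 to APLP1 (35138808 to 35879791, 0.55).

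Each low run was low against all 3 IDH2 lines, with medians from −0.45 to −1.09. IDH1R132H minus Parental there had medians of −0.57 to −0.77, while the IDH2 lines minus Parental lay between −0.02 and 0.39. In the high run on chromosome 7 IDH1R132H was 1.10 above Parental, but IDH2R140Q was 0.59 and IDH2R172K 0.42 above it too. In the run on chromosome 3 IDH1R132H was 0.46 above Parental while IDH2R140W minus Parental was −0.48. Over all of chromosome 20 the median was 0.638 against IDH2R140W, 0.142 against IDH2R172K and −0.206 against IDH2R140Q. DNA copy number was not measured in the files used here, and its part in these shifts was not tested. Named genes in such surroundings were DLD and SAMD9L on chromosome 7, with neighbour medians of −0.74 and −0.81, LEPREL1, IGF2BP2, IL1RAP and SKIL on chromosome 3 (0.44, 0.42, 0.46 and 0.49), PFKFB3 on chromosome 10 (0.49) and TRIB3 and SRXN1 on chromosome 20 (0.40 and 0.44). TNFSF10 was lower amid neighbours that were higher, at 0.49. Around CD74, KCNN4, HLA-DQB1, MS4A2 and LIN28B the neighbour medians were 0.18, −0.26, 0.02, 0.29 and 0.05, and around DDIT4 0.21.

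**Figure D5:**
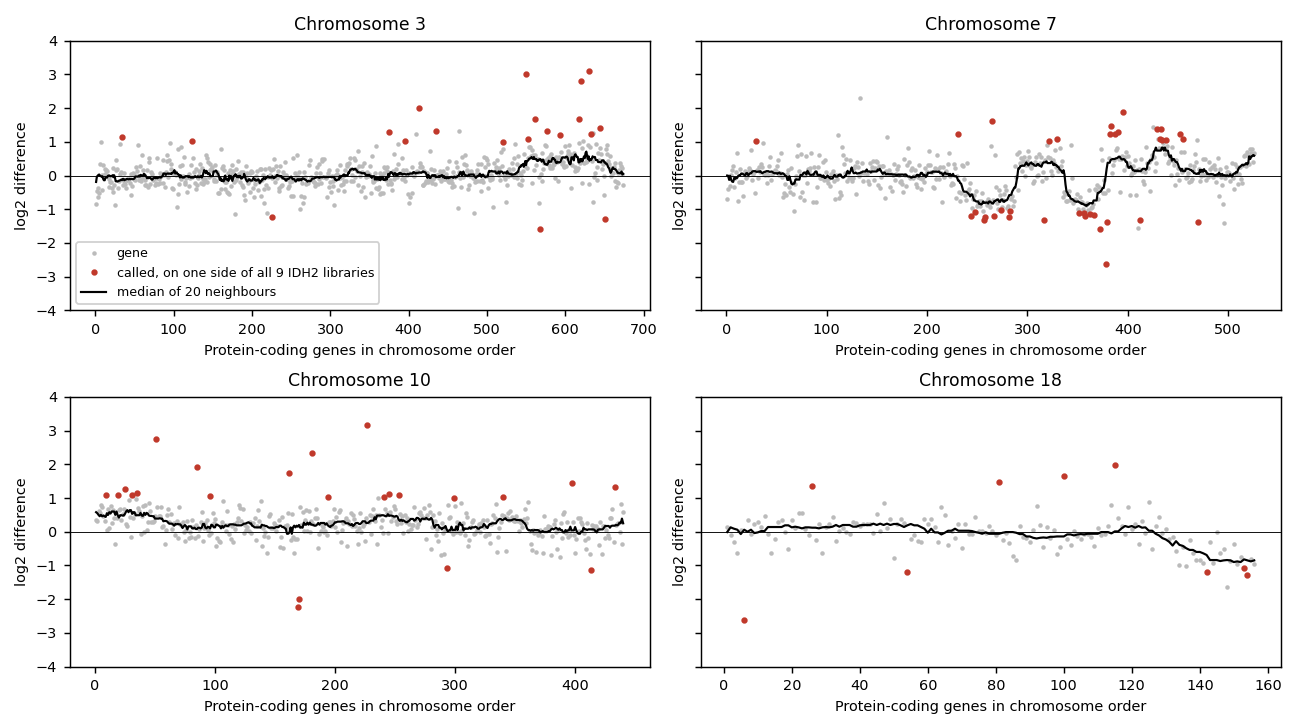
Log2 difference, IDH1R132H minus the mean of the 3 IDH2 groups, of protein-coding genes in chromosome order on chromosomes 3, 7, 10 and 18. The black line is the median of 20 neighbours, and red points are called genes on one side of all 9 IDH2 libraries. The line drops to about the run medians of −0.84 and −0.85 on chromosome 7 and −0.83 at the end of chromosome 18.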

How the data were processed

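The authors deposited 1 table of TPM values, in which rows are gene symbols and columns are libraries. Tools listed in the submitters' processing notes are DESeq2, RSEM, HTSeq and STAR 2.7.3, and the listed build is hg38. Which tool made the table is not given in the sources used here, nor are the annotation release and strand setting. TPM keeps no read number, so the depth per library and the precision it gives are unknown.

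Of 63568 rows, 6 whose symbol a spreadsheet had turned into an ambiguous date were left out, and rows of 1 symbol were summed. This gave 56624 symbols, 2985 of them from more than 1 row. Symbols with at least 1 TPM in 3 or more libraries were tested, 14881 in all, 224 of them on more than 1 row. GENCODE release 29 gave positions and types for 13060 of these (87.8%). Values were log2(TPM + 1), fitted with limma 3.58.1 in R 4.3.3 over all 15 libraries with 1 mean per group and an intensity trend. A gene was called at a Benjamini-Hochberg adjusted p under 0.05 over all symbols and a log2 difference of at least 1. By that adjusted p alone 4881 symbols passed. Gene lists are described by counts and medians, with no set test.

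The genes named were IDH1 and IDH2, the 12 called one-sided rises and falls with the widest gap to the nearest IDH2 line and at least 5 TPM in the higher groups, and up to 3 one-sided called members each way of every list. Other list members were named beside their count, after their values were seen. The comparison, its members, the lists and the rules were chosen with earlier results of these data known. On simulated data of 14881 genes, 50 of 50 raised by 1.5 and 50 of 50 lowered by 1.5 were recovered for this contrast. At a size of 2, 50 of 50 raised and 49 of 50 lowered genes were recovered. All sizes were simulated together, with 1 false call in all, and none was called in a run where nothing was changed. Recovery of genes with low levels was not tested separately. Spread between lines of the same genotype was not tested. Replicate numbers showed no clear pairing of the libraries. Deviations of same-numbered libraries correlated across genes at −0.034 to 0.086, and those of other-numbered libraries at −0.084 to 0.086. Alternatives were another pseudocount, filter or scaling, other fits, the replicate block, and leaving out each library, each IDH2 line or symbols on several rows. Python 3.11.15 was used for tables and figures. RefSeq promoters matched 7118 tested symbols. Some named genes and sequences are not reported here.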

Additional observations from a re-analysis of the deposited data

How the results depend on the processing

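With a pseudocount of 0.1 more genes were called, 1178 for IDH1R132H against the IDH2 lines (655 higher, 523 lower), 873 for IDH2R140Q (439 on one side), 1137 for IDH2R140W and 1239 for IDH2R172K against the other 3. Without the IDH2R140Q line 763 genes were on one side and called, 507 of them higher. The other planned settings left the counts over all genes within 1.5 times of those reported, such as 652 calls (350 higher, 302 lower) after median-ratio scaling and 516 at 5 TPM or more. The gene lists were less stable. Of their 128 called counts and medians, 24 moved without the IDH2R140Q line, 33 without IDH2R140W and 31 without IDH2R172K, 19 moved with a pseudocount of 0.1, and at most 8 under each remaining setting, where moved means by over 1.5 times, or to or from 0, for a count and by over 0.1 for a median. Interferon genes called lower were 16, and 7 without IDH2R140Q.

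The fit with the replicate number as a block gave 680 calls and 502 on one side. Leaving out each library in turn gave 659 to 701 calls, 372 to 416 higher and 275 to 301 lower, and 502 to 552 on one side, 291 to 331 higher and 189 to 221 lower. Against single lines it gave 815 to 856 for IDH2R140Q, 1114 to 1275 for IDH2R140W and 1101 to 1154 for IDH2R172K. For each IDH2 line against the other 3 it gave 447 to 493, 571 to 698 and 700 to 764 calls, with 288 to 338, 437 to 549 and 566 to 638 on one side.

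Of 2341 values of the 84 named genes under the alternatives, 2301 kept their direction and side of the threshold, 40 fell short of it and none changed direction. The number of libraries, 3 per line with 1 IDH1R132H line, and the unknown depth limit what can be said of low genes.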
